A study of Mus musculus with 12 samples.

Results

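The genes of S phase and DNA replication were followed here as a set of 42 members, chosen by name for their role at the replication fork or in its licensing and supply, and matched by gene symbol to the deposited tables. All 42 were found among the 51826 genes of the table, and all 42 passed the filter on low counts that left 16676 genes for testing. RNA sequencing was done on MC38 cells, a mouse colorectal carcinoma line, in 12 libraries that formed 4 groups of 3. The groups were wild-type cells without treatment, wild-type cells with added interferon (IFN), Smarcd1 knockout cells without treatment and Smarcd1 knockout cells with IFN. The knockout was made with a guide RNA (sgRNA) against Smarcd1, whose product belongs to the SWI/SNF (BAF) family of chromatin remodellers, and the series is titled for its part in PD-L1 expression and in cell proliferation. The sources used here give no kind, dose or duration of IFN, no guide sequence and no number of knockout clones. No label says that the 3 libraries of a group came from separate cultures, so p-values measure only the spread between these libraries, which may be technical.

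DNA replication starts at origins that the origin recognition complex marks, where Cdc6 and Cdt1 load the ring-shaped MCM helicase. The kinase Cdc7 with its partner Dbf4, together with Cdc45 and the GINS complex, turns the loaded ring into a moving helicase, and DNA polymerases alpha, delta and epsilon then copy the opened strands. Clamp, clamp loader, nuclease and ligase complete the lagging strand, and enzymes of nucleotide synthesis supply the building blocks. Many of these genes are transcribed in late G1 and S phase under E2F transcription factors, and they are abundant in dividing tumour lines.

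Libraries held 31752685 to 45721356 counts, and 22070 to 23314 genes were detected in each. Smarcd1 stood at 81.8 to 123 CPM (counts scaled to library size with TMM factors) in the 6 wild-type libraries and at 49.4 to 60.6 CPM in the 6 knockout libraries, with no overlap. It fell by 0.82 ± 0.13 (SE) on the log2 scale in the knockout without IFN, with an adjusted p of 0.000814 (edgeR). Titles decided the grouping. For 6 libraries the genotype and treatment fields go against the title, in that the IFN-treated wild type and the untreated knockout change places, and under those fields 3 libraries labelled knockout would lie among the wild-type levels of Smarcd1. The epithelial markers Epcam and Cdx2 were at 0 counts in all 12 libraries, and the 9 epithelial markers summed to 1.24 to 6.38 CPM; the labelled origin of the line therefore could not be read from these markers. These sums moved with the groups, from 5.54 to 6.38 CPM in untreated wild-type and 4.27 to 5.14 CPM in untreated knockout libraries to 2.01 to 2.16 CPM and 1.24 to 1.47 CPM with IFN. The 2 epithelial markers that passed the filter were called lower with IFN in each genotype (edgeR, adjusted p under 0.05). The 6 fibroblast markers summed to 470 to 510 CPM in untreated wild-type, 338 to 377 CPM in IFN-treated wild-type, 428 to 447 CPM in untreated knockout and 246 to 254 CPM in IFN-treated knockout libraries. Of the 5 that passed the filter, 3 were called lower and 1 higher with IFN in each genotype, and 3 without IFN and 2 with IFN were called lower in the knockout. Over all genes tested, 4.72% were called lower and 4.66% higher with IFN in wild-type cells, and 7.28% and 5.47% in knockout cells. In the knockout 10.6% of all genes were called lower without IFN and 10.6% with IFN. The 6 leukocyte markers summed to 5.28 to 10.8 CPM and the 4 endothelial markers to 1.16 to 3.16 CPM. The part of these marker shifts in the results on replication genes was not tested.

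Untreated wild-type replicate 2 stood apart from the other libraries in these genes. On the first principal component of the members (40.6% of their variance, genes not scaled) it scored 2.56, and the other 11 libraries lay between -1.21 and 0.82. The score of 0.82 was that of untreated knockout replicate 2. Fen1 lay at -2.47 and -1.52 (log2) against the other libraries of the group in these 2 libraries, and its part in the component was not tested. In untreated wild-type replicate 2, 14 of the 42 members differed by more than 0.25 on the log2 scale from the mean of the other libraries of its group, as did 14 members in untreated knockout replicate 1, against 0 to 8 members in each of the other 10 libraries. Mitochondrial transcripts took 4.82% of the counts of untreated wild-type replicate 2, against 1.61% and 1.62% in its group. They took 1.52% to 2.63% in wild-type cells with IFN, 1.68% to 2.58% in untreated knockout cells and 2.62% to 2.99% in knockout cells with IFN, and the part of this in the results was not tested. For members called in a comparison that uses untreated wild-type libraries, the value without that library is also given.

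**Figure D1:**
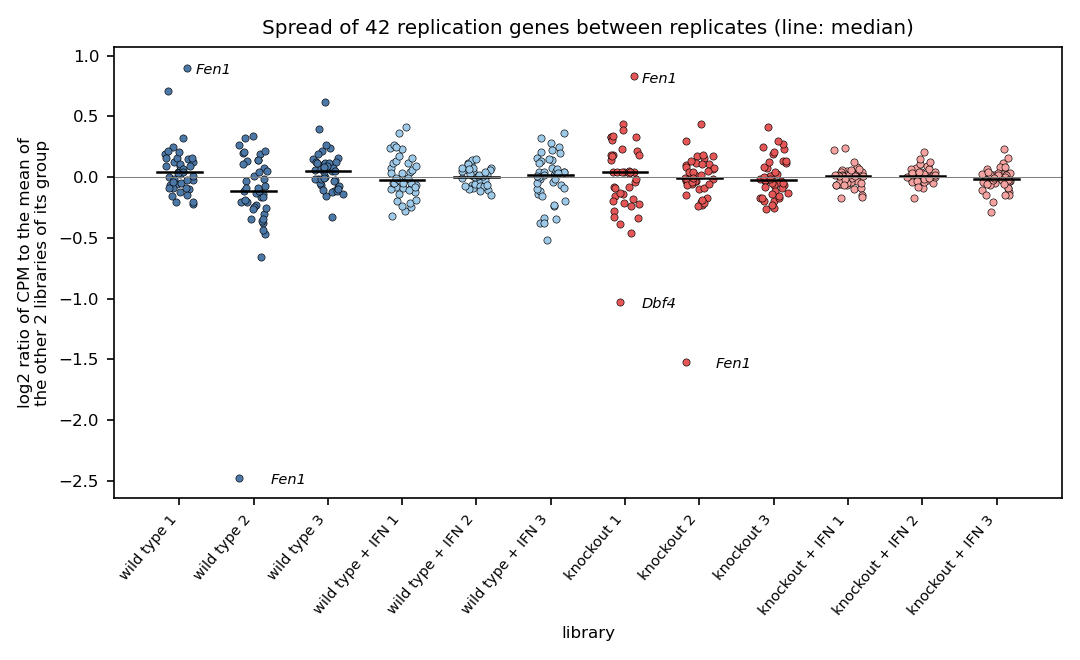
Each point is 1 of the 42 replication genes in 1 library, placed on the vertical axis by the log2 ratio of its CPM to the mean of the other libraries of its group; the horizontal axis gives the library, and the line is the median. Fen1 lies at -2.47 in untreated wild-type replicate 2 and at -1.52 in untreated knockout replicate 2, Dbf4 lies at -1.03 in untreated knockout replicate 1, and the points of the 3 knockout libraries with IFN lie between -0.29 and 0.24.

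Levels per transcript length differed widely between members. Pcna, the sliding clamp that holds polymerases on DNA, was the most abundant at 593 TPM (transcript abundance corrected for gene length) ± 59.9 (SD over 12 libraries). It was followed by Rrm2, a subunit of ribonucleotide reductase, at 386 TPM ± 31.5 and by Mcm5 at 326 TPM ± 46.4, Uhrf1 at 324 TPM ± 36.0 and Mcm7 at 309 TPM ± 44.0. The means of the last 3 of these lay closer together than their SD, which also holds differences between groups, and no test compared them. The order moved between groups: in knockout cells with IFN, Mcm5 averaged 289 TPM, below Uhrf1 at 319 TPM, Mcm3 at 294 TPM and Mcm7 at 291 TPM. The least abundant members over all libraries were the kinase gene Cdc7 at 22.2 TPM ± 5.0, the origin recognition gene Orc1 at 23.6 TPM ± 1.94 and the GINS subunit gene Gins3 at 29.5 TPM ± 4.18; in knockout cells with IFN, Orc1 at 23.3 TPM was below Cdc7 at 27.1 TPM. Summed over the 42 members, untreated wild-type libraries held 5505 to 6027 TPM, with the lowest in replicate 2, and wild-type libraries with IFN held 5312 to 5451 TPM. Untreated knockout libraries held 6341 to 6377 TPM and knockout libraries with IFN 5945 to 6040 TPM. The sum was lowest in wild-type cells with IFN and highest in untreated knockout cells. In bulk RNA, fewer cells in S phase and less RNA of these genes per cell cannot be told apart.

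**Figure D2:**
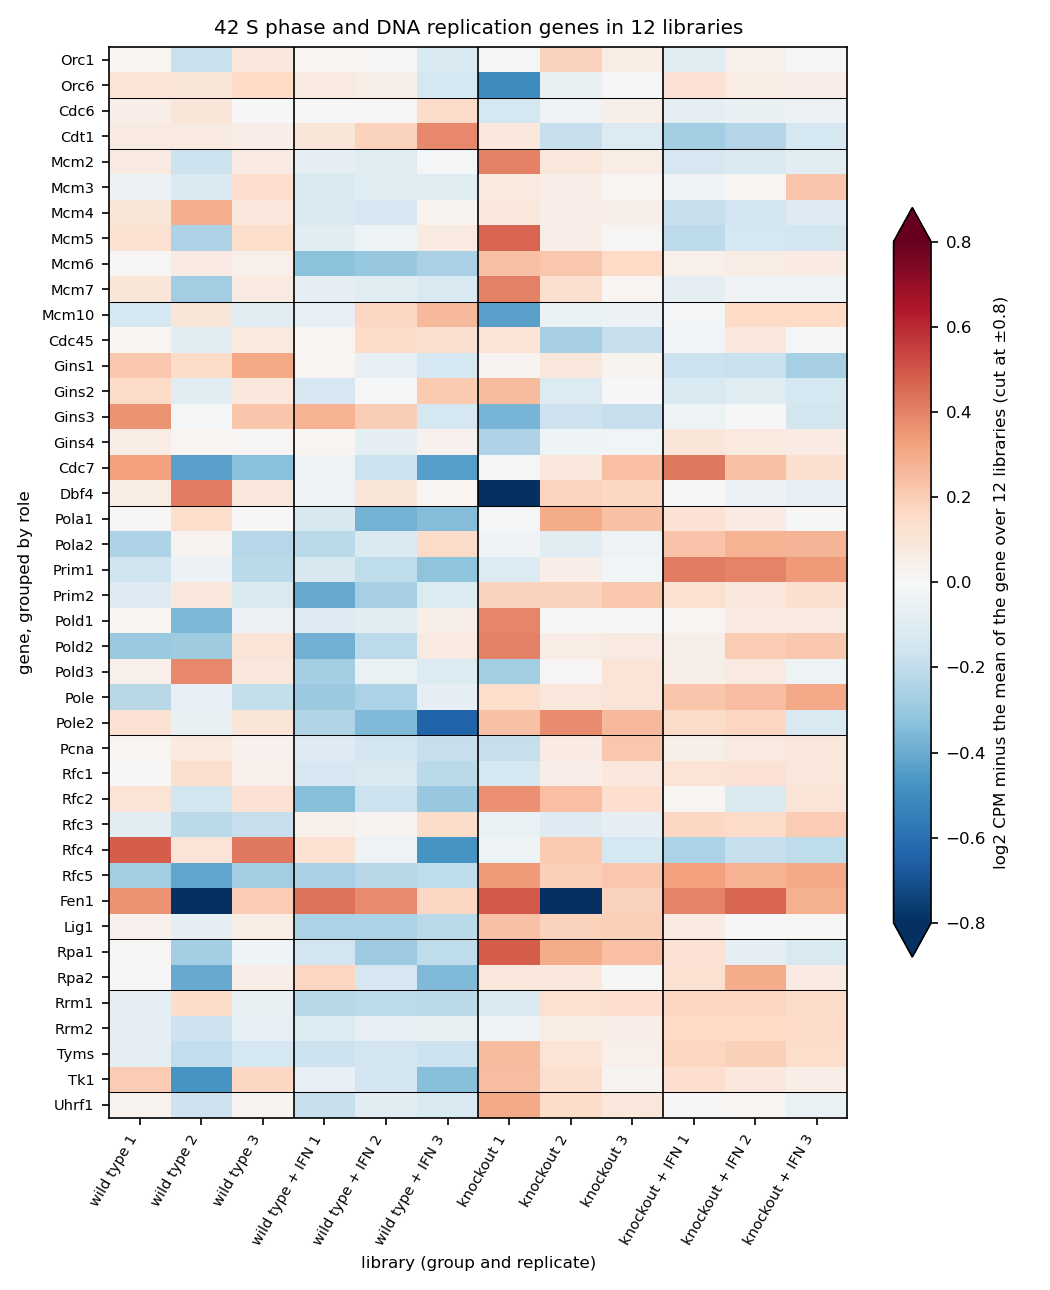
Rows are the 42 genes grouped by role, columns are the 12 libraries, and the colour gives the log2 CPM minus the mean of the gene over all 12 libraries, cut at ±0.8. Prim1, Pole and Rfc5 are red in the 3 knockout libraries with IFN, Mcm6 and Lig1 are blue in the 3 wild-type libraries with IFN, and single dark blue cells mark Fen1 and Dbf4 in untreated libraries.

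The stretch before the start site was looked up because E2F factors are known to bind there in many replication genes and because several members moved together. The RefSeq table for GRCm38.p6 held promoters, from 250 bases before to 50 bases after a start, for 35 of the 42 members, with 42 promoters in all. The letters TTTCCCGC, TTTCGCGC, TTTGCCGC and TTTGGCGC, which resemble E2F sites, were searched on both strands, where matches may overlap each other. At least 1 of them lay in 15 of the 42 promoters (35.7%), against 2.27% of the 32851 promoters in the table. The letters CCAAT, a motif of the factor NF-Y, lay in 54.8% of members' promoters on either strand, against 37.4% of all those counted. Among promoters of members that rose in knockout cells with IFN over IFN-treated wild-type cells, 4 of 12 held an E2F-type match (33.3%), and among those of members not called there it was 10 of 29 (34.5%). The 170 bases before the RefSeq start are printed for 4 members, 5′ to 3′ on the strand of the gene, with E2F-type matches in capitals. Mcm6 (chr1:128359706-128359875, minus strand) and Pola1 (chrX:93632156-93632325, minus strand) hold matches and were called in 2 comparisons. Mcm5 (chr8:75109339-75109508, plus strand) holds matches and was called in none, and Rfc5 (chr5:117389024-117389193, minus strand) holds none and rose in the knockout with and without IFN.
Mcm6: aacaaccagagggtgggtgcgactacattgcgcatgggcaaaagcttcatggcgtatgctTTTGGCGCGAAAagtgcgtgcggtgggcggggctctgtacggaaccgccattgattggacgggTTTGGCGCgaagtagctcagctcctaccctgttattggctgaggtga
Pola1: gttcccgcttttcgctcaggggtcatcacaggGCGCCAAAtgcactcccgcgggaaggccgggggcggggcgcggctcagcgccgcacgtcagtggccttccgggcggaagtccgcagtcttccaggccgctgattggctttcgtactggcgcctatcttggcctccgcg
Mcm5: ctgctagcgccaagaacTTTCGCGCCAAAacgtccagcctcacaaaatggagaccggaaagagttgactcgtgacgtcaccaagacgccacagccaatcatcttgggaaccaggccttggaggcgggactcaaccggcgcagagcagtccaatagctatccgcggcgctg
Rfc5: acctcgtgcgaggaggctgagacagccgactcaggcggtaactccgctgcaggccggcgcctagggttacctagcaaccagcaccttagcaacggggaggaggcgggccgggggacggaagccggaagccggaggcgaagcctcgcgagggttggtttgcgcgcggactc
These matches are a description of the letters in each window and say nothing of binding.

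The first comparison asked how knockout cells differed from wild-type cells without IFN. Rfc5, Rpa1, Tyms and Pole rose and Gins3 fell, all by less than 2-fold. Over all genes, 17% of the 16676 tested were called in this comparison (6.43% higher and 10.6% lower), by edgeR's quasi-likelihood test with Benjamini-Hochberg adjustment at 0.05. Of the 42 members 4 were called higher (9.52%) and 1 was called lower (2.38%), and the 4 called higher had roles at the leading strand, the clamp loader, single-strand binding and thymidylate synthesis. The median log2 fold change of the members was 0.12, against -0.0047 over all genes, with 28 members above 0 and 14 below. The median of the members was 0.063 when untreated wild-type replicate 2 was left out. Without that library 5 members were called higher, Prim2 being added, and 1 lower. Without untreated knockout replicate 1 only 2 were called higher. Each fit without 1 library called 2026 to 2926 genes in all, against 2835 in the fit of all libraries.

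With IFN in both genotypes, knockout cells had higher levels of 12 members. The polymerase genes, the role with the most members (9), held 5 of them. Prim1, Rfc5, Pole2, Pole, Rrm1, Prim2, Mcm6, Pola1, Tyms, Lig1, Rfc1 and Rrm2 rose, in falling order of their change, and Cdt1 alone fell. Over all genes 15.7% were called, 5.11% higher and 10.6% lower, whereas 28.6% of the members were called higher and 2.38% lower. The median of the members was 0.17 on the log2 scale, against -0.0031 over all genes, with 30 members above 0 and 12 below. By role, 5 of 9 polymerase genes, 3 of 4 nucleotide supply genes, 3 of 8 genes of the clamp, its loader and the lagging strand and 1 of 6 MCM genes were called higher. None of the 8 helicase activation genes and neither origin recognition gene was called higher or lower by edgeR. At an unadjusted p under 0.05 there was 1, Cdc7, and 0, and no share over all genes is given at that threshold. Leaving out 1 library at a time gave 7 to 15 members called higher, with 7 without knockout with IFN replicate 1, 8 without its replicate 2 and 8 without wild type with IFN replicate 2. Without untreated wild-type replicate 2, which is outside this comparison but shares in the estimate of the spread, 15 members were called higher. Each fit without 1 library called 1726 to 3454 genes in all, against 2622 in the fit of all libraries.

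**Figure D3:**
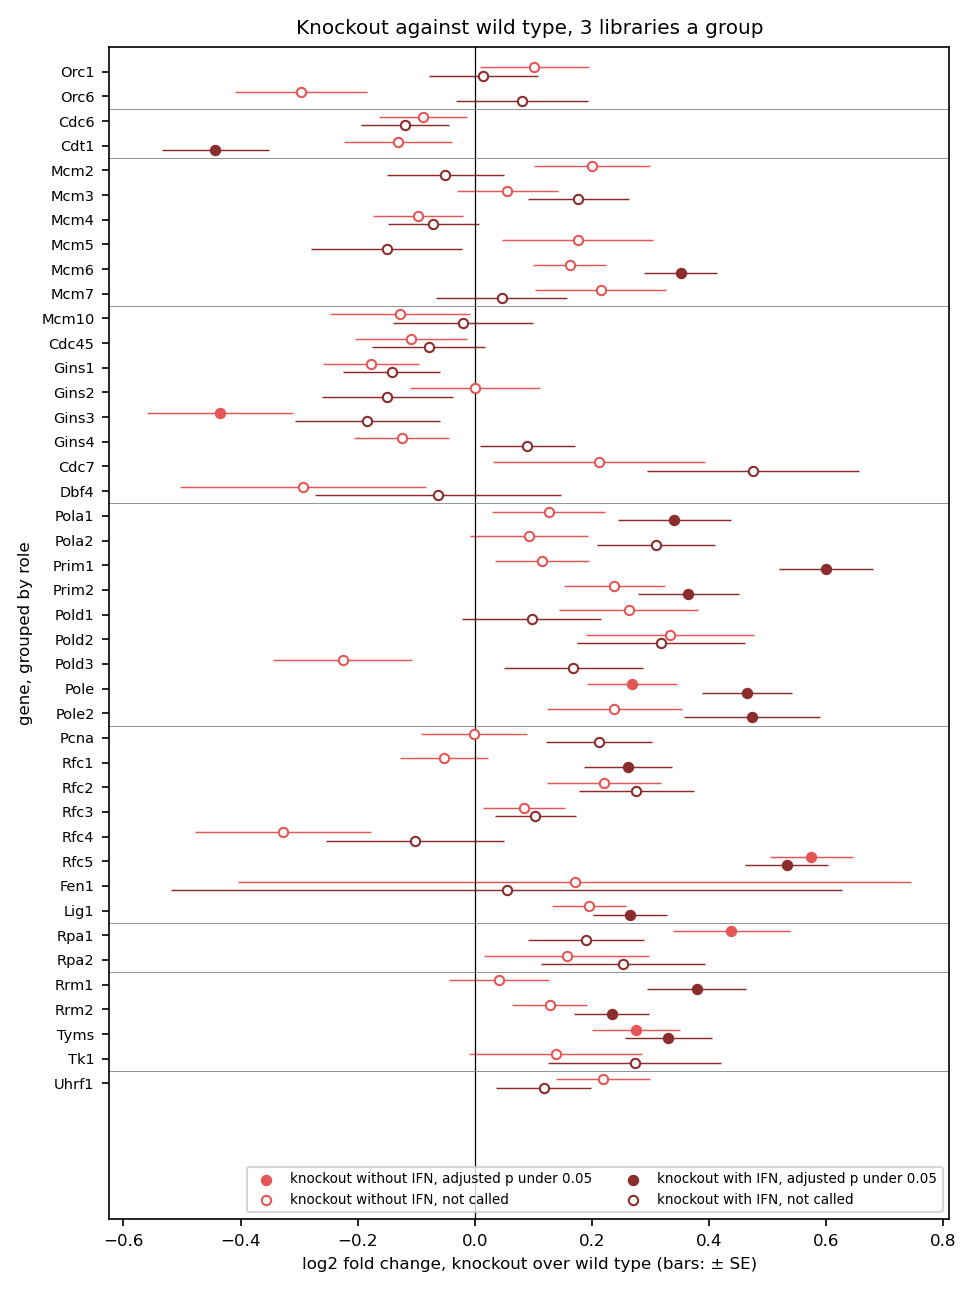
The horizontal axis gives the log2 fold change of the knockout over the wild type with its SE for the 42 genes, listed on the vertical axis by role, without IFN (light red) and with IFN (dark red); filled points had an adjusted p under 0.05. Filled points cluster among the polymerases and the nucleotide supply genes with IFN, Cdt1 lies at -0.44 with IFN, and the bars of Fen1 are the widest.

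Among the genes that mark and license origins, Cdt1, the factor that brings the MCM ring to origins and is destroyed once S phase starts, was the one that changed. Its levels were 161, 161 and 160 CPM in untreated wild-type libraries, 164, 174 and 201 CPM in wild-type libraries with IFN, 163, 135 and 142 CPM in untreated knockout libraries and 127, 131 and 139 CPM in knockout libraries with IFN. All 3 knockout libraries with IFN lay below every wild-type library. The knockout effect with IFN was -0.44 ± 0.09 (log2, SE; adjusted p = 0.00559), while that without IFN was -0.13 ± 0.09 (adjusted p = 0.361). Cdc6, its partner in loading, stood at 80.9 to 99.2 CPM over the 12 libraries and was called in no comparison. Orc6 and Orc1, subunits of the origin recognition complex, were not called in any comparison either. Orc6 was at 55.6 CPM in untreated knockout replicate 1, against 75.3 and 77.7 CPM in its group.

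Of the MCM helicase subunits, Mcm6 was the one that differed between genotypes. It stood at 464, 483 and 475 CPM in untreated wild-type libraries, 367, 373 and 384 CPM in wild-type libraries with IFN, 541, 535 and 514 CPM in untreated knockout libraries and 473, 480 and 481 CPM in knockout libraries with IFN. The 4 groups kept apart except that untreated wild-type and knockout with IFN libraries overlapped. Its log2 fold change in the knockout was 0.35 ± 0.06 with IFN (adjusted p = 0.00188) and 0.16 ± 0.06 without IFN (adjusted p = 0.0957). The other subunits of the ring are Mcm2, Mcm3, Mcm4, Mcm5 and Mcm7. Their log2 fold changes with IFN ranged from -0.15 (Mcm5) to 0.18 (Mcm3), and without IFN from -0.10 (Mcm4) to 0.22 (Mcm7), with no call. Mcm2, Mcm5 and Mcm7 were highest in untreated knockout replicate 1 (590, 646 and 482 CPM) and lowest in untreated wild-type replicate 2 (395, 394 and 301 CPM), the pair of libraries that stood apart.

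Among the factors that start the helicase, Gins3, a subunit of the GINS complex that travels with MCM, fell in the knockout without IFN. Its levels were 42.5, 33.0 and 38.8 CPM in untreated wild-type libraries and 25.7, 29.6 and 29.2 CPM in untreated knockout libraries, with no overlap. The change was -0.44 ± 0.12 on the log2 scale (adjusted p = 0.0311), and with IFN it was -0.18 ± 0.12 (adjusted p = 0.378). The call without IFN was lost without any 1 of 6 libraries, with an adjusted p of 0.0501 to 0.11; without untreated wild-type replicate 2 it held (-0.53, adjusted p = 0.0116). The other GINS genes, Gins1, Gins2 and Gins4, lay between -0.18 and 0.09 in the knockout comparisons and were not called there. Of the exonic bases of Gins2, 67.3% overlap the gene Gse1 on the opposite strand, and no source used here gives the strand setting of the counting, so reads of the pair cannot be told apart. Mcm10 and Cdc45, which join the helicase as it starts, were called in no comparison. Cdc7, the kinase that phosphorylates MCM, had a log2 fold change of 0.48 ± 0.18 with IFN (adjusted p = 0.101) and its levels spread from 22.6 to 41.1 CPM. Dbf4, its activator, was at 68.2 CPM in untreated knockout replicate 1 and at 140 and 139 CPM in the other libraries of that group, so no difference was detectable for it.

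**Figure D4:**
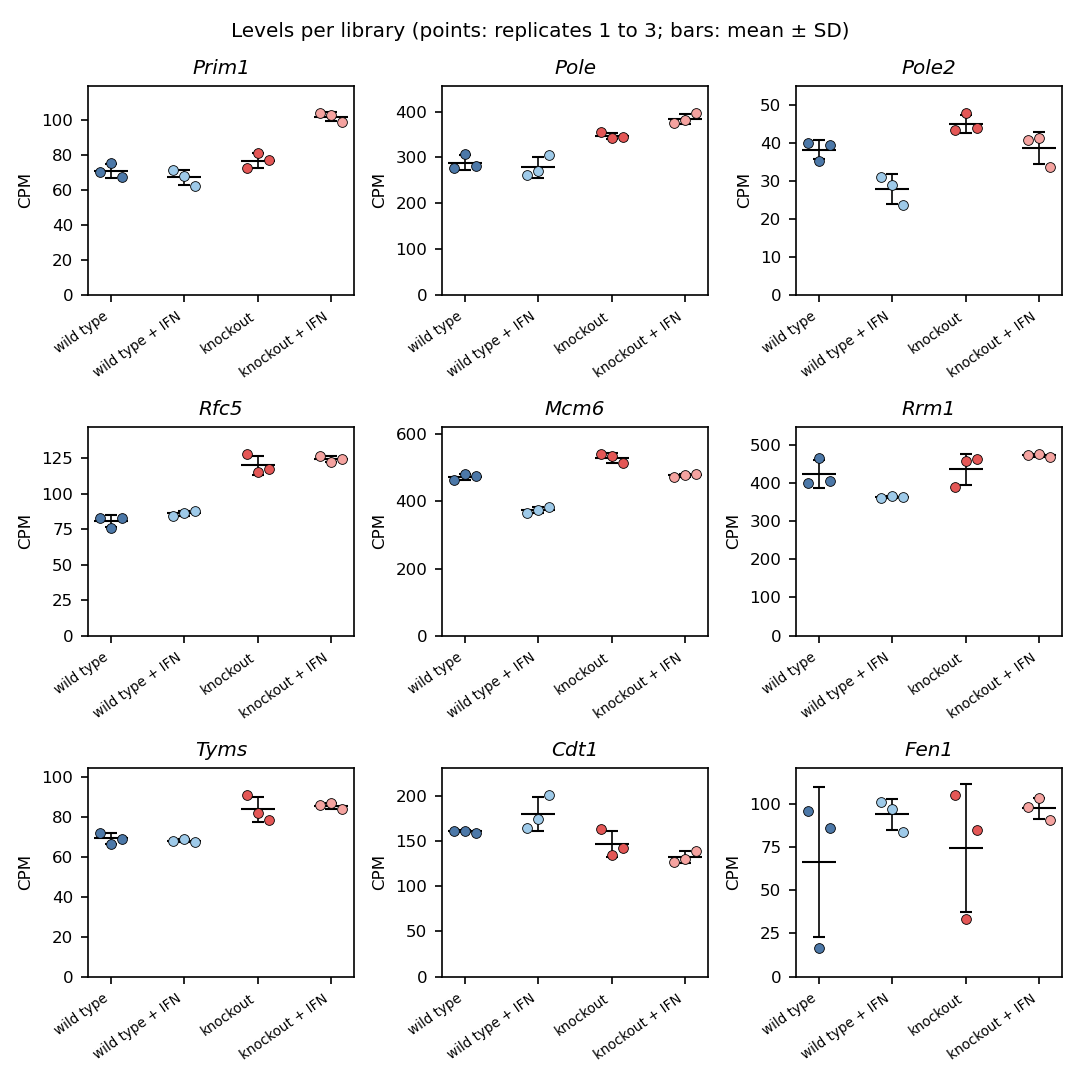
Each panel gives the CPM (vertical axis, from 0) of 1 gene in the 4 groups (horizontal axis); points are the 3 libraries of a group, and bars are the mean ± SD. Prim1 is highest in the 3 knockout libraries with IFN (98.6 to 104 CPM), Rfc5 is higher in all 6 knockout libraries than in all 6 wild-type libraries, and Fen1 has a low library in each untreated group.

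Of the members called in the knockout with IFN, Prim1 had the largest change. Prim1, the catalytic subunit of primase that makes the RNA primer of each new fragment, stood at 69.8, 75.3 and 67.1 CPM in untreated wild-type libraries and at 71.2, 67.5 and 62.3 CPM in wild-type libraries with IFN. In untreated knockout libraries it stood at 72.1, 80.7 and 76.8 CPM, and in knockout libraries with IFN at 104, 102 and 98.6 CPM. The knockout libraries with IFN lay above all other libraries, and untreated wild-type libraries overlapped with both remaining groups. The knockout with IFN was higher by 0.60 ± 0.08 on the log2 scale (1.52-fold; adjusted p = 0.00023), and without IFN the value was 0.11 ± 0.08 (adjusted p = 0.361). Prim2, the other primase subunit, was at 61.2, 67.2 and 75.1 CPM in wild-type and at 88.1, 85.7 and 88.3 CPM in knockout libraries with IFN, which do not overlap. Its change was 0.37 ± 0.09 (adjusted p = 0.0124), and the adjusted p was 0.0526 without wild type with IFN replicate 1. Pola1, the catalytic subunit of polymerase alpha, was at 124, 104 and 106 CPM in wild-type and at 146, 141 and 135 CPM in knockout libraries with IFN, again with no overlap. Its change was 0.34 ± 0.10 (adjusted p = 0.0298), and 5 of the 12 libraries, each left out alone, ended that call, with an adjusted p of 0.0567 to 0.125. The accessory subunit Pola2 had a change of 0.31 ± 0.10 and an adjusted p of 0.0568, above the threshold.

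Pole, the catalytic subunit of polymerase epsilon that copies the leading strand, rose in the knockout in both conditions. It was at 276, 308 and 282 CPM in untreated wild-type libraries and at 355, 342 and 345 CPM in untreated knockout libraries. With IFN it was at 261, 270 and 305 CPM in wild-type and at 375, 382 and 397 CPM in knockout libraries. No knockout library overlapped any wild-type library. The log2 fold change was 0.47 ± 0.08 with IFN (adjusted p = 0.00115), against 0.27 ± 0.08 in untreated cells (adjusted p = 0.0318). The call without IFN was lost when any 1 of 6 libraries was left out, with an adjusted p of 0.051 to 0.0934, but held without untreated wild-type replicate 2 (0.32, adjusted p = 0.0118). Pole2, its second subunit, was at 31.1, 28.8 and 23.6 CPM in wild-type and at 40.9, 41.4 and 33.8 CPM in knockout libraries with IFN. The groups did not overlap, and the change was 0.47 ± 0.12 (adjusted p = 0.015); it lost its call without knockout with IFN replicate 1 or 2 or wild type with IFN replicate 3, with an adjusted p of 0.0511 to 0.0685. The 3 polymerase delta genes, Pold1, Pold2 and Pold3, which serve the lagging strand, had changes of 0.10 to 0.32 with IFN and were not called.

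Rfc5 was the member with the steadiest difference between genotypes. It encodes a subunit of replication factor C, the loader that opens the Pcna ring. Levels were 83.1, 75.8 and 83.1 CPM in untreated wild-type and 84.3, 86.4 and 87.6 CPM in IFN-treated wild-type libraries, against 128, 115 and 117 CPM in untreated and 127, 122 and 125 CPM in IFN-treated knockout libraries. All 6 knockout libraries lay above all 6 wild-type libraries. The log2 fold change was 0.58 ± 0.07 without IFN (1.49-fold; adjusted p = 0.000111) and reached 0.53 ± 0.07 under IFN (adjusted p = 0.000226). The change in untreated cells was 0.54 (adjusted p = 0.0002) without untreated wild-type replicate 2. Both calls held without any 1 library and under all 9 other settings that kept the grouping by title. Of its exonic bases 10.7% overlap the gene Wsb2 on the opposite strand. Rfc1, the large subunit of the loader, was at 154, 156 and 146 CPM in wild-type and at 183, 184 and 180 CPM in knockout libraries with IFN, a change of 0.26 ± 0.08 (adjusted p = 0.0343) that was lost without any 1 of the 6 libraries compared. The other loader subunits, Rfc2, Rfc3 and Rfc4, were not called in either knockout comparison. Rfc4 had a negative value in both (-0.33 without IFN and -0.10 with IFN), unlike Rfc5. Pcna itself was at 384 to 406 CPM in wild-type and at 451 to 464 CPM in knockout libraries with IFN, a change of 0.21 ± 0.09 with an adjusted p of 0.143.

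Lig1, the ligase that seals lagging-strand fragments, was at 139, 139 and 143 CPM in wild-type and at 174, 166 and 167 CPM in knockout libraries with IFN. These did not overlap, and the change was 0.27 ± 0.06 (adjusted p = 0.0135), lost without knockout with IFN replicate 1 or wild type with IFN replicate 2. Fen1, the nuclease that trims the flap before the ligase acts, gave no usable comparison. It stood at 95.8, 16.4 and 86.2 CPM in untreated wild-type and at 105, 33.2 and 85.1 CPM in untreated knockout libraries, whereas the 6 libraries with IFN lay between 83.7 and 103 CPM. The low library was replicate 2 in both untreated groups, with 583 counts in the wild type and 1377 counts in the knockout. Its log2 fold changes had an SE of 0.57 to 0.58 in every comparison of 2 groups. Overlaps with Tmem258 and Gm10143 on the opposite strand cover 84.2% of the exonic bases of Fen1. In untreated wild-type replicate 2 Tmem258 had 946 counts against 1384 and 1400 in its group. Gm10143 had 110 counts there against 96 and 336. In untreated knockout replicate 2 Tmem258 had 1544 counts against 2091 and 1839, and Gm10143 had 218 against 181 and 126. The part of this overlap in the low values was not tested.

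Rpa1, the large subunit of the protein that coats single-stranded DNA, rose in the knockout without IFN. It was at 297, 245 and 289 CPM in untreated wild-type and at 414, 364 and 349 CPM in untreated knockout libraries, with no overlap. The change was 0.44 ± 0.10 on the log2 scale (adjusted p = 0.00936), and with IFN it was 0.19 ± 0.10 (adjusted p = 0.241). When untreated wild-type replicate 2 was left out, the change without IFN was 0.36 (adjusted p = 0.0211). Rpa2, the middle subunit, was called in no comparison.

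Of the 4 members that serve nucleotide supply, 3 were called higher in the knockout with IFN. Rrm1, the large subunit of ribonucleotide reductase, which makes deoxynucleotides, was at 361, 364 and 363 CPM in wild-type and at 473, 475 and 466 CPM in knockout libraries with IFN. The groups were far apart relative to their spread, and the change was 0.38 ± 0.08 (adjusted p = 0.00884). Rrm2, the small subunit, was at 378, 390 and 392 CPM in wild-type and at 456, 455 and 453 CPM in knockout libraries with IFN, a change of 0.23 ± 0.06 (adjusted p = 0.0262) that was lost without any 1 of 5 libraries, with an adjusted p of 0.0797 to 0.0908. Tyms, which makes thymidylate, rose in both conditions. It was at 72.3, 66.6 and 69.3 CPM in untreated wild-type and at 91.1, 82.3 and 78.6 CPM in untreated knockout libraries, and at 67.9, 69.0 and 67.8 CPM in wild-type and at 86.1, 87.2 and 84.1 CPM in knockout libraries with IFN. The changes were 0.28 ± 0.07 (adjusted p = 0.0239) without IFN and 0.33 ± 0.07 (adjusted p = 0.00916) with IFN. The call without IFN was lost without untreated knockout replicate 1 or untreated wild-type replicate 3 (adjusted p of 0.0658 to 0.0693) and held without untreated wild-type replicate 2 (0.25, adjusted p = 0.0442). On the TPM scale the picture for Tyms was different: values were 59.5, 58.7 and 91.5 TPM in wild-type and 65.4, 106 and 65.0 TPM in knockout libraries with IFN, which overlap, with an adjusted p of 0.764 by limma. Tk1, the thymidine salvage kinase, was not called; it was at 87.0 CPM in untreated wild-type replicate 2, against 139 and 136 CPM in its group. Without that library its change with IFN was 0.28 (adjusted p = 0.0312). Uhrf1, which recognises hemimethylated DNA behind the fork, had a change of 0.22 ± 0.08 in untreated cells (adjusted p = 0.0831) that was 0.12 ± 0.08 with IFN (adjusted p = 0.387).

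IFN in wild-type cells lowered a small number of members. Pole2, Mcm6, Pola1, Gins1 and Lig1 fell, by 0.25 to 0.46 on the log2 scale. Over all genes 9.38% were called (4.66% higher and 4.72% lower), and of the members 5 were called lower (11.9%) and 0 higher by edgeR. At an unadjusted p under 0.05 there was 1 higher and 12 lower, and no share over all genes is given at that threshold. DESeq2 called 1 higher and 6 lower, with 2144 genes called in all. The median of the members was -0.077, against -0.00082 over all genes, with 31 of 42 below 0. Mcm6 fell by 0.34 ± 0.06 (adjusted p = 0.00474), and its 3 libraries with IFN lay below the 3 without. Pole2 fell by 0.46 ± 0.12 (adjusted p = 0.029) from 39.9, 35.4 and 39.4 CPM to 31.1, 28.8 and 23.6 CPM. Lig1 fell by 0.25 ± 0.06 (adjusted p = 0.0294) from 170, 158 and 173 CPM to 139, 139 and 143 CPM. The call of Lig1 was lost without any 1 of 7 libraries (adjusted p up to 0.113) and that of Pole2 without any 1 of 4 (adjusted p up to 0.0959), while that of Mcm6 held without any 1 library. Values without untreated wild-type replicate 2 were -0.32 for Mcm6 (adjusted p = 0.00433), -0.51 for Pole2 (adjusted p = 0.0216) and -0.29 for Lig1 (adjusted p = 0.00885).

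The other 2 calls lay close to the threshold. Gins1, a GINS subunit, was at 30.8, 29.4 and 32.9 CPM without and at 26.8, 25.4 and 24.1 CPM with IFN, which do not overlap (log2 fold change -0.29 ± 0.08, adjusted p = 0.0472). Pola1 was at 136, 149 and 136 CPM without and at 124, 104 and 106 CPM with IFN (log2 fold change -0.33 ± 0.10, adjusted p = 0.0484). Each of these calls was lost without any 1 of 10 libraries, with the adjusted p reaching 0.156 for Gins1 and 0.182 for Pola1. Without untreated wild-type replicate 2, 7 members were called lower: Tk1, Rfc2 and Rfc4 were added, Gins1 stayed (-0.32, adjusted p = 0.0263) and Pola1 was lost (-0.29, adjusted p = 0.0939). Leaving out 1 library at a time gave 883 to 1825 genes called in all, against 1564 with all libraries. Between 1 and 7 members were then called lower. The member count was 1 without untreated wild-type replicate 1 or 3 or without wild type with IFN replicate 2. It was 2 without wild type with IFN replicate 3 or without any 1 knockout library with IFN. It was 3 without wild type with IFN replicate 1 or without untreated knockout replicate 2 or 3. The comparison of wild-type cells with and without IFN shares its IFN-treated libraries with the knockout comparison with IFN, so the negative values of Mcm6, Pola1, Pole2 and Lig1 here and their positive values there are not independent.

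In knockout cells IFN raised Prim1 and Rfc3 and lowered Rpa1. Over all genes 12.8% were called, 5.47% higher and 7.28% lower. Of the members 2 were called higher (4.76%) and 1 lower (2.38%), and the median was -0.00019, against -0.0058 over all genes. By role, medians ran from -0.224 for the 6 MCM genes, 5 of them below 0, to 0.144 for the 8 helicase activation genes, 2 of them below 0. In each of these roles 0 genes were called by edgeR. Prim1 rose by 0.41 ± 0.08 (adjusted p = 0.0048), and its 3 libraries with IFN lay above the 3 without. Rfc3, a loader subunit, was at 69.5, 67.3 and 68.2 CPM without and at 81.0, 80.4 and 83.0 CPM with IFN (log2 fold change 0.25 ± 0.07, adjusted p = 0.0319). Rpa1 was at 414, 364 and 349 CPM without and at 321, 280 and 271 CPM with IFN, with no overlap (log2 fold change -0.37 ± 0.10, adjusted p = 0.0289). The call of Rfc3 was lost without any 1 of 6 libraries and that of Rpa1 without any 1 of 4, with an adjusted p of up to 0.119 and 0.128; for Rpa1 these were untreated knockout replicates 1 and 2 and knockout with IFN replicates 2 and 3. In wild-type cells Rfc3 had a value of 0.23 ± 0.07 (adjusted p = 0.0564). Without untreated wild-type replicate 2, 3 members were called higher and 6 lower, the latter adding Mcm2, Mcm4, Mcm5, Gins1 and Lig1. Each fit without 1 library called 1349 to 3007 genes in all, against 2127 in the fit of all libraries.

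**Figure D5:**
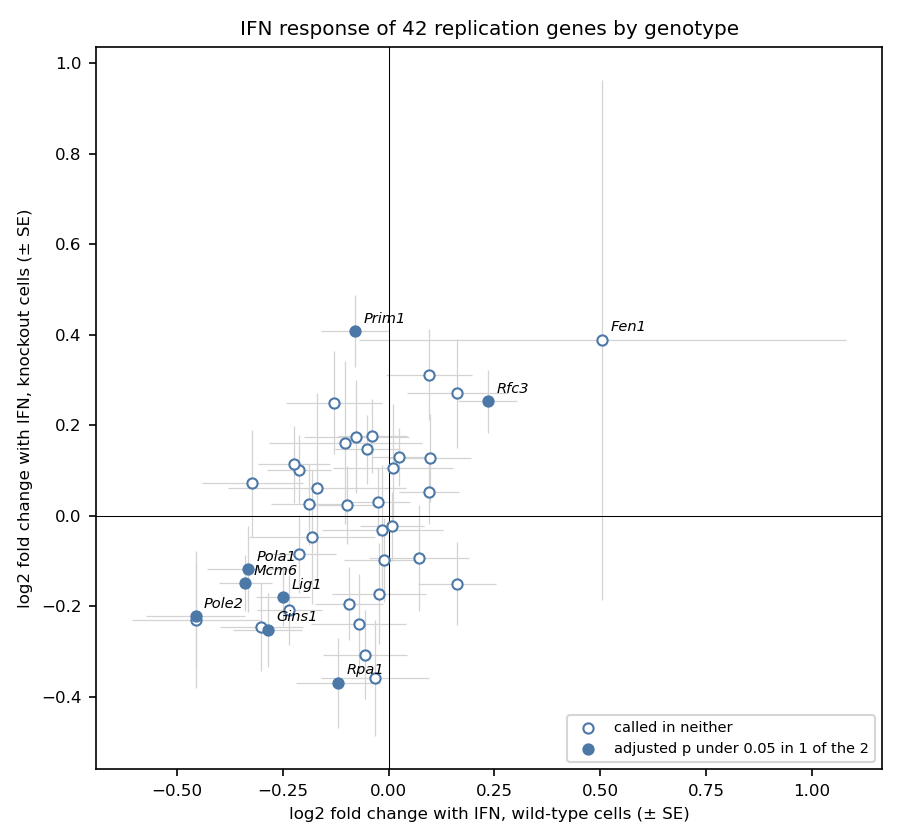
The horizontal axis gives the log2 fold change with IFN in wild-type cells and the vertical axis that in knockout cells, with SE bars, for the 42 genes; filled points had an adjusted p under 0.05 in 1 of the comparisons. Mcm6, Pole2, Pola1, Gins1 and Lig1 lie to the left of 0, Prim1 lies at -0.08 and 0.41, and the bars of Fen1 are the widest.

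Whether IFN acted differently in the 2 genotypes was tested by the interaction. By edgeR 1.02% of all genes were called (0.708% higher and 0.312% lower) and 0 of the 42 members. At an unadjusted p under 0.05 there were 6 members, Prim1, Rrm1, Rfc1, Orc6 and Pold3 with a positive value and Cdt1 with a negative one. No share over all genes is given at that threshold. DESeq2 called 1, Prim1, with 357 genes called in all, and limma on TPM called 0, with 111 genes in all. Prim1 had an interaction of 0.49 ± 0.11 on the log2 scale (adjusted p = 0.0778 by edgeR and 0.00364 by DESeq2), and of 0.44 without untreated wild-type replicate 2 (adjusted p = 0.0935 by edgeR). The median over the members was 0.10, against -0.019 over all genes, with 29 members above 0. A difference between the genotypes in the IFN response was therefore not called for any member by the main test, and the larger number of members called in the knockout with IFN than without does not show that the knockout effect differed.

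Of the 42 members 25 were called in no comparison, 8 in 1 and 9 in 2. Rfc5, Pole and Tyms were higher in the knockout with and without IFN. These comparisons share no library but share 1 fit, its estimate of the spread and a knockout whose number of clones is not given. The call of Pole without IFN was lost without knockout with IFN replicate 1, so these calls are not fully independent either. The 2 calls of each other member called in 2 comparisons share libraries and are not independent. Those of Mcm6, Pola1, Pole2 and Lig1 share the wild-type libraries with IFN. Those of Prim1 share the knockout libraries with IFN, and those of Rpa1 share the untreated knockout libraries. Across all comparisons there were 26 calls of members, of which 8 held without any 1 library and under those 9 settings: Prim1 with IFN in knockout cells, Rfc5 in the knockout without IFN, and Cdt1, Mcm6, Prim1, Pole, Rfc5 and Rrm1 in the knockout with IFN.

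Genes around replication that are not members were counted from further lists. Their calls by edgeR are to be read against 5.11% of all genes called higher and 10.6% lower in the knockout with IFN. Without IFN these shares were 6.43% and 10.6%. No such share is given for an unadjusted p under 0.05, so counts at that threshold have no background to be read against. Of 30 further replication factors 5 were called higher and 0 lower in the knockout with IFN by edgeR, with 7 higher and 2 lower at an unadjusted p under 0.05, and 3 higher and 4 lower without IFN. Dna2, a nuclease and helicase of the lagging strand, rose by 0.74 ± 0.08 with IFN (adjusted p = 3.17e-05) and by 0.45 ± 0.08 without (adjusted p = 0.00177; 0.43 and 0.0032 without untreated wild-type replicate 2). It was at 24.6 to 26.6 CPM and 23.6 to 25.8 CPM in wild-type and at 33.8 to 35.6 CPM and 40.1 to 43.3 CPM in knockout libraries, without and with IFN. Clspn, the checkpoint mediator claspin, rose by 0.45 ± 0.11 with IFN (adjusted p = 0.0151), whereas Topbp1, an activator of the ATR kinase, fell by 0.42 ± 0.08 (log2) without IFN (adjusted p = 0.00466), with -0.34 and 0.0101 when untreated wild-type replicate 2 was left out. Of 14 genes of chromatin assembly behind the fork 5 were called higher and 0 lower with IFN by edgeR, the same counts as at an unadjusted p under 0.05. Without IFN 0 were called by edgeR in either direction, with 2 higher and 1 lower at an unadjusted p under 0.05. Of 20 genes of the E2F and RB network and S phase entry 4 were called higher and 0 lower with IFN by edgeR (7 and 2 at an unadjusted p under 0.05), among them E2f2 (0.68 ± 0.09, adjusted p = 0.000146) and E2f1 (0.32 ± 0.10, adjusted p = 0.0397), which encode transcription factors of replication genes, and Rb1 (0.74 ± 0.19, adjusted p = 0.0175), which encodes their repressor. Without IFN 1 of the 20 was called higher and 3 lower by edgeR (2 and 4 at an unadjusted p under 0.05), and 12 had a negative value. There E2f1 was higher by 0.36 ± 0.10 (adjusted p = 0.0254). Ccne1, the cyclin E gene that starts S phase, was lower by a log2 value of -0.46 ± 0.07 (adjusted p = 0.000586). Leaving out untreated wild-type replicate 2 gave values of 0.36 (adjusted p = 0.0396) and -0.43 (adjusted p = 0.0012). Of 14 nucleotide supply genes that are not members, 2 were called higher and 1 lower with IFN, with a median of 0.028 (log2). Without IFN 0 were called higher and 1 lower by edgeR, with 1 higher and 2 lower at an unadjusted p under 0.05.

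Genes of G2/M and mitosis, of the replication checkpoint and of polymerases outside the fork were counted against the same shares over all genes. In those shares lower calls also outnumber higher ones. Counts at an unadjusted p under 0.05 again have no such share. Of 26 genes of G2/M and mitosis, 0 were called higher and 5 lower by edgeR in the knockout without IFN (0 and 8 at an unadjusted p under 0.05), and 2 higher and 5 lower with IFN. Aurka, a mitotic kinase gene, was lower by a log2 value of -0.50 ± 0.08 in untreated cells (adjusted p = 0.00126) and by -0.54 ± 0.08 under IFN (adjusted p = 0.000697). Of 9 genes of the replication checkpoint 0 were called higher and 2 lower by edgeR without IFN (0 and 4 at an unadjusted p under 0.05). There Chek1, the checkpoint kinase gene, had a value of -0.46 ± 0.11 (adjusted p = 0.0138). With IFN 0 of the 9 were called higher and 1 lower by edgeR. Of 14 DNA polymerase genes that work outside the fork, 1 was called higher with IFN (Polh, 0.47 ± 0.08, adjusted p = 0.0018) and 1 lower without IFN (Polq, -0.49 ± 0.09, adjusted p = 0.00284). In untreated cells, leaving out wild-type replicate 2 gave -0.44 for Aurka (adjusted p = 0.0032), -0.49 for Chek1 (adjusted p = 0.0155) and -0.39 for Polq (adjusted p = 0.00449).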

How the data were processed

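Poly-A RNA was sequenced as paired reads, per the labels' protocols, which name total RNA or polysome RNA without saying which a library held. The submitters' processing notes name CASAVA, Trimmomatic 0.36, FastQC 0.11.2, HISAT2 2.1.0 and build GRCm38 and name no counting program, strand setting or annotation. The authors deposited raw counts per gene and TPM for 12 libraries. The deposited TPM values served for levels between genes and for 1 alternative test (limma 3.58.1 on log2(TPM + 1)), and the deposited counts for all main tests. In R 4.3.3, edgeR 4.0.16 kept 16676 genes (filterByExpr, minimum count 10, minimum total 15), scaled by TMM, and fitted 1 mean per group (quasi-likelihood, robust, 8 residual degrees of freedom). Benjamini-Hochberg adjustment ran over all genes tested in each of 5 contrasts, with a threshold of 0.05; a gene rose or fell where it passed. SE was taken as the size of a log2 fold change divided by √F of its test. Depth of 31752685 to 45721356 counts left every member far above the filter, so the spread between libraries sets the precision. DESeq2 1.42.0 and the other alternatives are given at the end. The analysis was tested on simulated data in which all genes had the same spread and no library stood apart. That test does not cover genes with a wider spread or libraries that stand apart. Gene overlaps come from GENCODE M21 (GRCm38). The members, their roles and all lists were chosen with earlier results of these data known; all members may be named, with up to 4 genes of each other list by smallest p in a contrast. Genes of the other nucleotide supply list are given as counts, except Samhd1, which is given with values, and not all of them are reported here.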

Additional observations from a re-analysis of the deposited data

Results flagged for a closer look

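Of the genes around replication outside the 42 members, 3 had an IFN response that differed between the genotypes by edgeR's interaction test, in which 170 of 16676 genes were called. Samhd1, which breaks down deoxynucleotides, was at 262, 298 and 273 CPM in untreated and 442, 443 and 495 CPM in IFN-treated wild-type libraries, and at 158, 165 and 169 CPM and 458, 457 and 471 CPM in knockout libraries; its interaction was 0.768 (adjusted p = 0.00213, up to 0.0127 under the alternatives). E2f2, an E2F transcription factor gene, was at 26.7 to 27.8 CPM in untreated and at most 26.5 CPM in IFN-treated wild-type libraries, and at 29.6, 27.3 and 27.9 CPM and 38.2, 38.3 and 38.5 CPM in knockout libraries; its interaction was 0.633 (adjusted p = 0.0236, up to 0.089). Cdc20, an activator of the anaphase-promoting complex, was at 301, 218 and 291 CPM and 265, 269 and 268 CPM in wild-type libraries and at 330, 294 and 295 CPM and 183, 180 and 180 CPM in knockout libraries; its interaction was -0.743 (adjusted p = 0.0324, up to 0.101). Leaving out untreated wild-type replicate 2 gave interactions of 0.71 for Samhd1 (adjusted p = 0.00152), 0.62 for E2f2 (adjusted p = 0.0242) and -0.61 for Cdc20 (adjusted p = 0.00322).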

How the results depend on the processing

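Of 26 calls of members, 11 held without any 1 library and 12 under the 9 other settings that kept the grouping, and none reversed its sign. Counts below are for all genes or for members called higher and lower. In the main fit, IFN called 1564 genes in wild-type cells and 2127 in knockout cells. The knockout had 2835 genes without IFN and 2622 with IFN, and the interaction 170. Without 1 library at a time, IFN in wild-type cells gave 883 to 1825 genes, 0 to 1 higher and 1 to 7 lower; IFN in knockout cells gave 1349 to 3007 genes, 1 to 3 higher and 0 to 6 lower; the knockout without IFN gave 2026 to 2926 genes, 2 to 5 higher and 0 to 1 lower; the knockout with IFN gave 1726 to 3454 genes and 7 to 15 higher; and the interaction gave 118 to 212 genes.

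With groups from the genotype and treatment fields, the contrasts exchange. IFN in wild-type cells had 2835 genes, 4 higher and 1 lower, and IFN in knockout cells 2622 genes and 12 higher. The knockout without IFN had 1564 genes, 0 higher and 5 lower, and the knockout with IFN 2127 genes and 2 higher. In a fit of only the 6 libraries compared, IFN in wild-type cells had 648 genes and 0 lower. In such fits IFN in knockout cells had 2680 genes and 3 lower, and the knockout without IFN 1494 genes, 1 higher and 0 lower. A setting chosen after seeing the data left out untreated wild-type replicate 2 and untreated knockout replicate 1 together. There IFN in wild-type cells had 2717 genes, 1 higher and 12 lower, and IFN in knockout cells 2782 genes, 4 higher and 7 lower. The knockout without IFN had 2839 genes, 7 higher and 2 lower, and with IFN 4457 genes, 16 higher and 2 lower. The interaction had 265 genes.

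With DESeq2, IFN in wild-type cells had 2144 genes and 1 higher, and IFN in knockout cells 2723 genes and 5 lower. The knockout without IFN had 3549 genes and 7 higher by DESeq2, and the interaction 357 genes with 1 higher. With upper quartile scaling, IFN in knockout cells had 2213 genes, 1 higher and 4 lower, and the knockout without IFN 3022 genes and 8 higher. With limma on TPM, IFN in knockout cells had 1703 genes, 1 higher and 3 lower, and the interaction 111 genes. With no filter, IFN in wild-type cells had 1223 genes and 2 lower, and IFN in knockout cells 1718 genes and 1 higher. The knockout without IFN then had 2369 genes and 0 lower. With at least 50 counts in 3 libraries, IFN in wild-type cells had 1609 genes and 1 higher, and IFN in knockout cells 2022 genes and 2 lower. The cause of these shifts was not tested.

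Replicate numbers did not pair the samples: 1 of 18 same-numbered pairs had a correlation of deviations over 0.1 (range -0.162 to 0.113), and 4 of 12 libraries lay closest to their own number. With the replicate block, IFN in wild-type cells had 1282 genes and 2 members lower, and IFN in knockout cells 1869 genes and 1 member higher. The knockout with IFN had 2333 genes and 10 members higher under the block. The samples share only a number, so a call lost under the block is not read as a weaker effect.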
